A study of Ovis aries with 36 samples.

Results

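The 3 loci described here, ENSOARG00000017789, ENSOARG00000009826 and XLOC_027233, were selected from 31136 transcribed loci because earlier results of the same data had shown them high in the longissimus lumborum (LL) or semimembranosus (SM) muscle, in part against the supraspinatus (SS). Their levels, and every contrast that involves SM, LL or SS, are therefore a description without a test. All 3 were among the 12461 loci with enough counts to be tested, although XLOC_027233 passed that filter only through LL and psoas major (PM), either of which sufficed without the other. The selection gives only part of the pattern of these loci. ENSOARG00000017789 was higher in adductor (AD) than in SM on average, and XLOC_027233 had no count in any SM sample and was higher in PM than in LL.

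RNA-Seq counts came from 9 muscles of each of 4 unrelated male lambs of a Poll Dorset cross, slaughtered at 14 months of age after feeding on soy and sorghum, with no treatment groups. Besides SM, AD, LL, PM and SS, the muscles were rectus femoris (RF) of the thigh, gluteus medius (GM) of the rump, semitendinosus (ST) and gluteobiceps (GB), each sampled once per animal at the surface of the middle of the belly, which gave 36 samples with 4 biological replicates per muscle. Each sample held between 3699148 and 6427422 counts, of which the 4 most counted loci took 65.7% to 78.3%. Levels are in CPM, that is counts relative to library sizes after TMM normalization, so that 1 count was worth 0.122 to 0.342 CPM and a floor of 3 counts corresponded to 0.366 to 1.03 CPM in a sample.

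Skeletal muscles differ in their mixture of slow oxidative and fast glycolytic fibres, and the slow fibres express their own isoforms of troponin, myosin light chain and calcium pump. Muscles also differ in where they arise in the body. LL runs along the back beside the lumbar spine and extends it, PM lies below the same vertebrae and flexes the hip, SS stabilizes the shoulder, and the other 6 muscles belong to the thigh and rump. The files pair the 3 loci with no gene symbol, so the loci are given by identifier, and no function is assigned to them. In whole muscle tissue, fewer cells of a type and less RNA per cell cannot be told apart.

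ENSOARG00000017789 spans 143632 bases of chromosome 9, from 94346997 to 94490628 in Oar_v3.1, and collected 9520 counts over the 36 samples. A second Ensembl gene, ENSOARG00000017796, has the same coordinates in the files and was listed with 0 counts. The counting thus gave all 9520 counts to ENSOARG00000017789, and whether some reads came from the second gene was not tested. The level of ENSOARG00000017789 was highest in LL in 4 of 4 animals and lowest in SS in 3 of them.

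In LL, ENSOARG00000017789 was at 80.0, 83.2, 90.8 and 86.2 CPM in animals 1 to 4 (85.1 ± 4.58, mean ± SD, n = 4). In AD, the next muscle, it was at 62.7, 62.8, 62.0 and 55.5 CPM (60.8 ± 3.51, n = 4). In SM it was at 55.0, 39.2, 64.8 and 57.6 CPM (54.2 ± 10.8, n = 4). The LL samples lay above all 32 samples of the other muscles, whereas the SM values enclosed all of the AD values. Every LL sample exceeded every sample of the other 8 muscles in 0.0401% of the loci tested.

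The next muscles followed at similar levels. GM had 42.3, 47.2, 42.9 and 51.4 CPM (46.0 ± 4.22, n = 4). GB had 27.4, 46.9, 48.9 and 51.5 CPM (43.7 ± 11.0, n = 4), with animal 1 well below the other 3. ST had 43.7, 43.3, 34.1 and 52.8 CPM (43.5 ± 7.62, n = 4). The ranges of these muscles overlapped each other and that of PM, where the values were 31.1, 38.9, 54.1 and 36.4 CPM (40.1 ± 9.85, n = 4). RF, at 37.2, 30.0, 25.1 and 29.7 CPM (30.5 ± 5.01, n = 4), stood between PM and SS and overlapped with both. SS was lowest on average, at 28.5, 18.2, 10.5 and 15.5 CPM (18.2 ± 7.58, n = 4), and its animal 1 exceeded GB of the same animal.

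**Figure D1:**
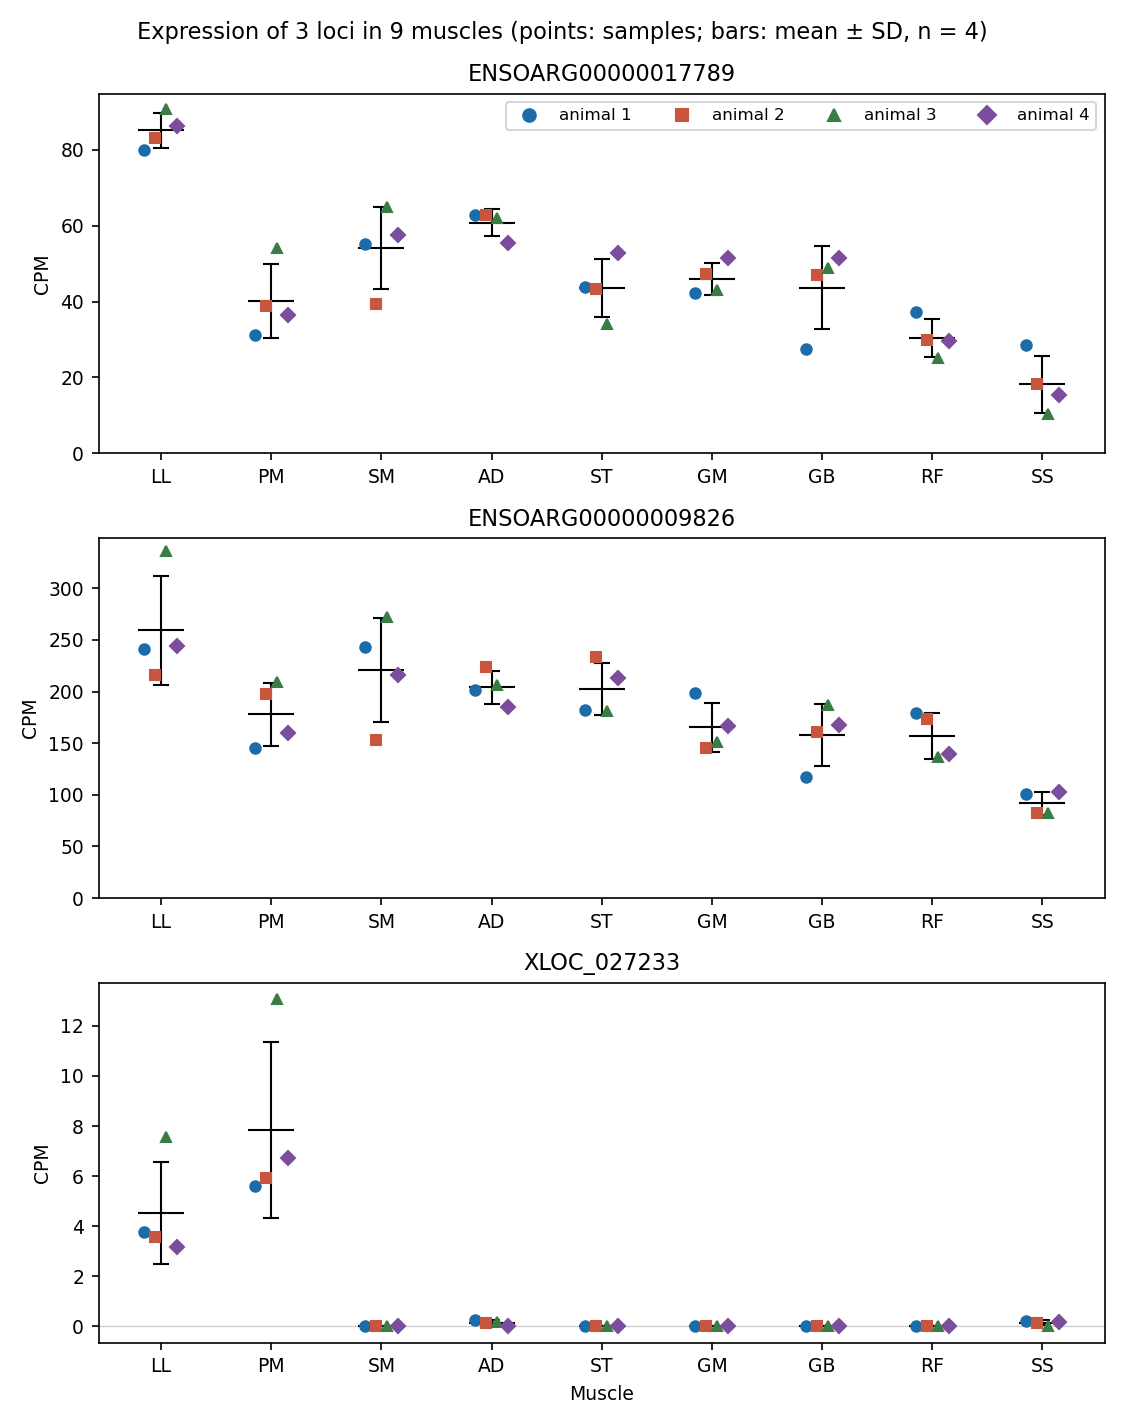
Expression in CPM (vertical axes, from 0) of ENSOARG00000017789, ENSOARG00000009826 and XLOC_027233 in the 9 muscles (horizontal axis), with 1 point per animal and bars for the mean ± SD of 4 animals. LL is highest for ENSOARG00000017789 (85.1 CPM), SS is lowest for ENSOARG00000009826 (91.9 CPM), and XLOC_027233 is near 0 outside LL and PM.

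On the log2 CPM scale, the within-animal difference of ENSOARG00000017789 between LL and the mean of the other 8 muscles was 1.11 (SE 0.051, n = 4), positive in 4 of 4 animals. The smallest step below LL was that to AD, a difference of 0.48 (SE 0.065), or 1.40-fold in mean CPM. The same difference from the other 8 muscles was 0.36 (SE 0.17) for SM, positive in 3 of 4 animals, and 0.57 (SE 0.068) for AD, positive in all 4. SS was lower than the mean of the others by a log2 difference of -1.47 (SE 0.33), and the 4 animals ranged from -2.20 to -0.65. The spread in SS was thus far wider than in LL, where the range was 1.02 to 1.26.

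ENSOARG00000009826 spans 68370 bases of chromosome 1, from 38621085 to 38689454, and had 36518 counts in all, so counting error contributed little to its spread. In contrast to ENSOARG00000017789, the muscle that stood apart was SS at the low end, not LL at the high end. In SS it was at 101, 82.1, 82.3 and 102 CPM (91.9 ± 11.2, n = 4), below all 32 other samples, an arrangement found in 0.0883% of the loci tested. SS was lower than the mean of the other 8 muscles by a log2 difference of -1.04 (SE 0.11, n = 4) and was the lowest muscle in 4 of 4 animals.

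The highest mean was that of LL, with 242, 216, 336 and 244 CPM (259 ± 52.5, n = 4). SM had 243, 153, 272 and 216 CPM (221 ± 50.7, n = 4). The ranges of these muscles overlapped, and the muscle with the highest level was SM in animal 1, ST in animal 2 and LL in animals 3 and 4. LL exceeded the mean of the other muscles by 0.62 (SE 0.13) and SM by 0.35 (SE 0.18) on the log2 scale, with SM of animal 2 below that mean.

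AD had 202, 223, 206 and 185 CPM of ENSOARG00000009826 (204 ± 15.8, n = 4). ST had 182, 233, 181 and 213 CPM (202 ± 25.3, n = 4). PM had 145, 198, 209 and 160 CPM (178 ± 30.5, n = 4). These muscles overlapped with SM above and with GM and GB below, whereas AD and ST lay above RF without overlap. GM had 198, 146, 151 and 166 CPM (165 ± 23.7, n = 4). GB had 117, 161, 187 and 168 CPM (158 ± 29.8, n = 4), again with animal 1 lowest. RF had 179, 174, 136 and 140 CPM (157 ± 22.2, n = 4). No pair of neighbours in this order was separated without overlap, other than RF and SS at its end.

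XLOC_027233 carries the Ensembl gene ENSOARG00000011739 and spans 77511 bases of chromosome 8, from 36569062 to 36646572. It was a locus of few counts, 284 over the 36 samples, of which 278 (97.9%) fell in the 8 samples of LL and PM. LL had 21, 20, 44 and 20 counts in animals 1 to 4, and PM had 25, 38, 63 and 47. The 20 samples of SM, ST, GB, GM and RF had 0 counts. SS had 1, 1, 0 and 1 counts and AD had 1, 1, 1 and 0, so that no sample outside LL and PM exceeded 1 count and 22 of 28 were at 0.

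These counts corresponded to 3.77, 3.58, 7.55 and 3.19 CPM in LL (4.52 ± 2.03, n = 4). In PM they corresponded to 5.60, 5.93, 13.1 and 6.74 CPM (7.83 ± 3.52, n = 4). SS was at 0.142 ± 0.101 CPM and AD at 0.148 ± 0.110 CPM (n = 4 each), below the floor of 3 counts in any single sample. Every LL and PM sample exceeded every sample of the other 7 muscles, and this was so for no other locus. This corresponds to 0.00803% of the 12461 loci tested and 0.00321% of all 31136 loci. LL and PM were grouped because this locus had its counts there, so these shares are a description without a test. The muscles that carried the counts are those of the lumbar region.

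Where all 4 samples of a muscle were at 0, a lower bound was computed against a floor of 3 counts over the group. PM was at least 50.9-fold higher than SM, 48.3-fold than ST, 63.6-fold than GB, 67.2-fold than GM and 59.4-fold than RF. LL was at least 30.1-fold higher than SM and at least 28.6-fold to 39.7-fold higher than the other 4. Against SS and AD, with 3 counts each, the ratio of pooled CPM was 56.0 (95% exact interval 18.9 to 274) and 56.8 (19.1 to 278) for PM. For LL it was 33.1 (11.0 to 163) against SS and 33.6 (11.2 to 166) against AD. The bounds take the pooled level of PM or LL as measured, without its counting error. The floor of 3 counts lies below the upper limit of the 95% exact interval for 0 counts, 3.69, so bounds against that limit would be lower. The intervals cover counting error only, as the reads carried no molecular identifiers.

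**Figure D2:**
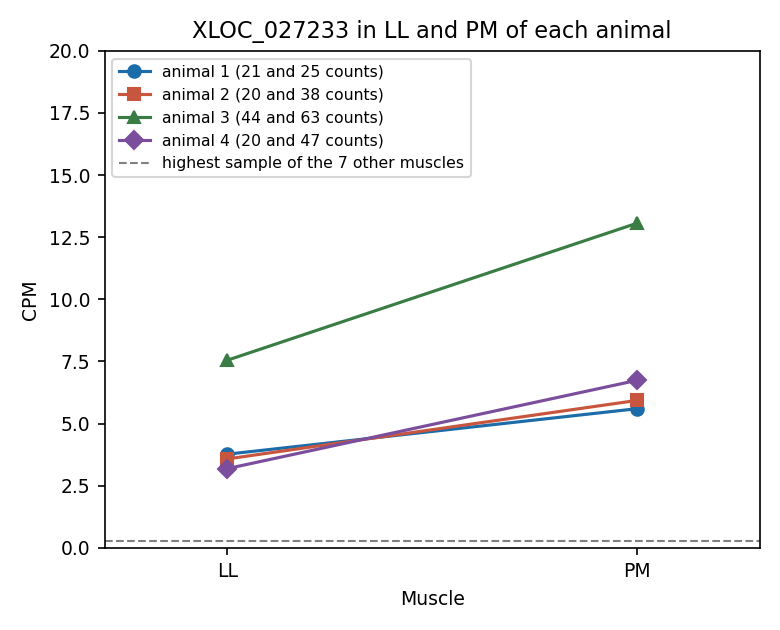
CPM of XLOC_027233 (vertical axis, from 0) in LL and PM of the same animal (horizontal axis), with 1 line per animal and a dashed line at the highest of the 28 samples of the other muscles. PM lies above LL in 4 of 4 animals, and animal 3 is highest in both muscles, at 7.55 and 13.1 CPM.

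Within animals, the ratio of PM to LL in CPM of XLOC_027233 was 1.49 in animal 1 (95% exact interval 0.798 to 2.79), 1.66 in animal 2 (0.941 to 3.01), 1.73 in animal 3 (1.16 to 2.60) and 2.11 in animal 4 (1.23 to 3.77). PM was higher in 4 of 4 animals, by 0.74 on the log2 CPM scale (SE 0.099), but the counting intervals of animals 1 and 2 include equal levels. Animal 3 stood above the mean of the other 3 animals 2.15-fold in LL and 2.14-fold in PM. The plot of LL and PM by animal shows these parallel differences.

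Differences among ST, GB, GM, RF, AD and PM were not the contrasts that selected the loci and were tested. A locus chosen as high in LL or SM can thereby be low in these muscles. The tests are therefore not fully independent of the selection. The joint test of these 6 muscles, edgeR's quasi-likelihood test adjusted by Benjamini-Hochberg over all loci tested, called 3.39% of the loci at an FDR of at most 0.01. XLOC_027233 passed it (FDR = 9.57e-11), and it passed in each of the 11 alternatives that gave it a value, the fit without a filter included. Its LL samples alone admitted it to the test, so its entry did not rest on its counts in PM. LL was, however, a muscle of the selection. ENSOARG00000017789 did not pass (FDR = 0.0321), but passed with the likelihood ratio test, with DESeq2 and without the filter on low counts. ENSOARG00000009826 did not pass (FDR = 0.348). The 6 muscles enclosed a range of mean CPM from 30.5 to 60.8 for the former and from 157 to 204 for the latter.

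Of the 15 pairs among these 6 muscles, XLOC_027233 differed in 5 when a call required an FDR of 0.01 or less together with a log2FC beyond 1 in either direction, criteria that 0% to 2.21% of the loci met in a single pair and 3.74% in at least 1 of the 15. It was higher in PM in all 5, with FDR of 2.1e-08 against ST, 6.6e-08 against GB, 4.6e-08 against GM, 4.3e-08 against RF and 5.6e-07 against AD (edgeR's quasi-likelihood test, Benjamini-Hochberg adjusted). The fitted log2FC, 8.42 to 8.54 against the muscles at 0 and 5.63 against AD, depend on how the fit treats counts of 0 and are no bounds. Loci called higher in PM amounted to 0.859% against ST, 0.00803% against GB, 0.0482% against GM, 0.353% against RF and 0.0241% against AD. Without a filter the same 5 pairs were called. A call higher in PM in all 5 pairs was made for 0.00803% of the loci tested, which was XLOC_027233. Since these 5 pairs share the PM samples, they are not independent of each other. Every PM sample exceeded every sample of the other 5 muscles in 0.112% of the loci tested. PM was singled out because of this locus, so the shares for PM against all 5 muscles are a description.

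For ENSOARG00000017789, 0 of the 15 pairs were called, although 7 had an unadjusted p under 0.05 in the same test. The pair of RF and AD was nearest, with a log2FC of 1.00 in favour of AD (FDR = 0.0103 in the same test), where 0.136% of the loci were called higher in AD. All 4 AD samples, from 55.5 to 62.8 CPM, were above all 4 RF samples, from 25.1 to 37.2 CPM. This pair lay just short of both thresholds and was called with DESeq2, with library sizes computed without the 4 most counted loci, in a fit to only the 24 samples of the 6 muscles and without animal 1. For ENSOARG00000009826, 0 of the 15 pairs were called, with 3 at an unadjusted p under 0.05, and DESeq2 also called 0.

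Differences among animals, which were not contrasts of the selection either, were called for 17% of the loci (FDR of at most 0.01 in edgeR's joint quasi-likelihood test of the 4 animals). None of the 3 loci passed, with FDR of 0.966 for ENSOARG00000017789, 0.837 for ENSOARG00000009826 and 0.0441 for XLOC_027233. The value of XLOC_027233, the only one with an unadjusted p under 0.05, rested on animal 3, without which the FDR was 0.994 in the same test. With the likelihood ratio test on all animals it passed (FDR = 4.2e-06), and with DESeq2 it did not (FDR = 0.142).

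Muscle accounted for 83.5% of the sum of squares of log2 CPM for ENSOARG00000017789, 78.8% for ENSOARG00000009826 and 97.7% for XLOC_027233, against a median of 28.7% over the loci tested. Since muscle levels chose the loci, high shares were built into the selection. Animal accounted for 0.240%, 0.899% and 0.264%, against a median of 15.4%, and what remained for the sample itself was 16.3%, 20.3% and 2.07%, against 51.5%. The shares of a locus are parts of the same whole, so a high share for muscle leaves less for the rest. For XLOC_027233, 22 of the 28 samples outside LL and PM were at 0 counts and could not differ between animals.

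ENSOARG00000017789 and ENSOARG00000009826 lie on different chromosomes and were both selected for high levels in SM or LL, in part against SS, so a shared pattern over all muscles was built in. After the mean of each animal was subtracted, their log2 CPM had a Pearson r of 0.894 and a Spearman rho of 0.842 over the 36 samples, and the 9 muscle means had an r of 0.944. Without LL and SS, the muscles at the ends, r was 0.732 over 28 samples that still hold SM, and without SM as well it was 0.675 over 24 samples. With muscle and animal means both removed, r was 0.678. All values of a sample share its library and its normalization. Among the samples that lay low for both loci within their muscle, GB of animal 1 was at -0.62 and -0.40 on the log2 scale and SM of animal 2 at -0.42 and -0.46. SS, ST and RF of animal 3 and PM of animal 1 were also low for both, at -0.65 to -0.23 for ENSOARG00000017789 and -0.26 to -0.22 for ENSOARG00000009826. The TMM factors were the highest of their muscles in GB of animal 1, SM of animal 2 and ST of animal 3. These were 1.33, 1.22 and 0.983, and a higher factor lowers CPM. RF of animal 3 and PM of animal 1 had factors of 1.00 and 1.09, and SS of animal 3 the lowest of its muscle (0.919). Whether this scaling bears on the lows was not tested. XLOC_027233 had an r of 0.309 with ENSOARG00000017789 and 0.299 with ENSOARG00000009826 over the 36 samples, and of 0.532 and 0.427 with muscle and animal means removed. Without LL and SS, r over 28 samples was -0.087 and -0.0018. In the 20 samples of SM, ST, GB, GM and RF, XLOC_027233 had 0 counts. With the means removed, its values there differed only by animal, so 0.532 and 0.427 rest mainly on the other samples.

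**Figure D3:**
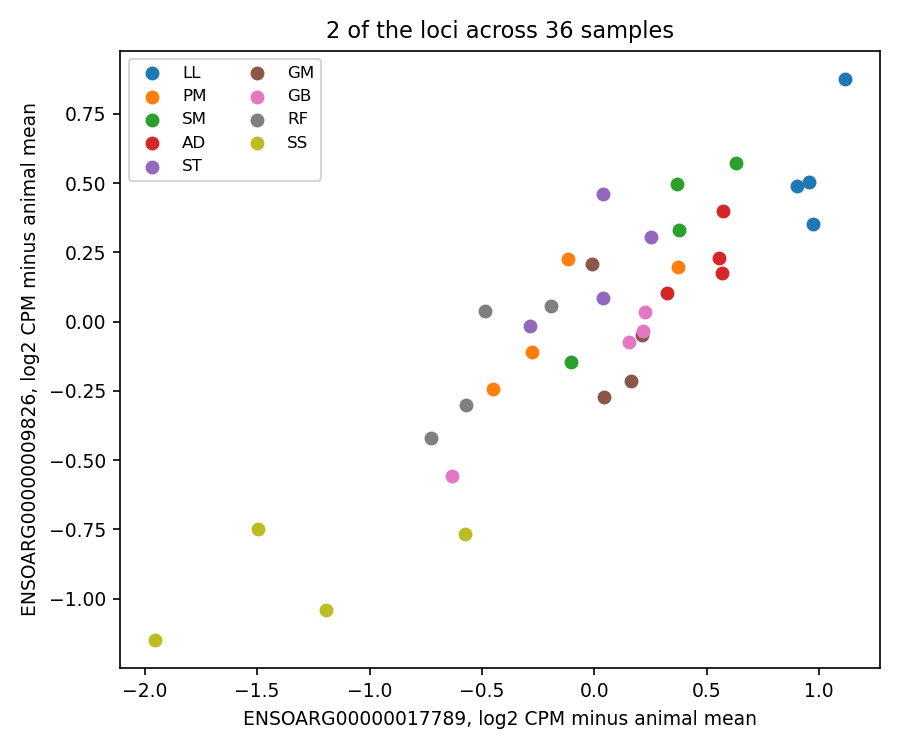
Log2 CPM minus the mean of the animal for ENSOARG00000017789 (horizontal axis) and ENSOARG00000009826 (vertical axis), with 1 point per sample coloured by muscle. The 4 LL samples lie at the upper right and the 4 SS samples at the lower left (r = 0.894 over 36 samples).

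The loci whose patterns were most like each of the 3 were ranked by the same animal-centred Pearson r over the 36 samples. For ENSOARG00000017789, 20 of the other 12460 loci had an r above 0.8, the highest being ENSOARG00000020797 on chromosome 7 from 44019267 to 44048143 (r = 0.913), followed by ENSOARG00000009826 itself. The next was the locus paired with SMYD2, a lysine methyltransferase gene (r = 0.892). It was followed by a locus that covers CHI3L1, a gene for a secreted chitinase-like protein, together with a neighbouring Ensembl gene (r = 0.889), and the fifth had an r of 0.883. SMYD2 had mean levels of 31.5 CPM in LL, 29.0 in SM and 12.1 in SS, and the CHI3L1 locus 73.3, 70.0 and 4.74 CPM.

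For ENSOARG00000009826, 47 loci exceeded an r of 0.8. The most similar was a locus with the Ensembl genes ENSOARG00000004100 and ENSOARG00000004143 on chromosome 24 from 26211003 to 26227471 (r = 0.968), at 1974 CPM in LL and 794 CPM in SS. The next was ENSOARG00000009602 on chromosome 21 from 25593909 to 25643167 (r = 0.966), at 627 CPM in LL and 194 CPM in SS. The other 3 of the 5 nearest had r from 0.930 to 0.952. All 5 of them, like all 5 of ENSOARG00000017789, were highest in LL and lowest in SS, which follows from ranking by likeness to loci with that pattern.

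XLOC_027233 had no such company, with 0 loci above an r of 0.8. The nearest was ENSOARG00000017097 on chromosome 17 from 53991133 to 54035397 (r = 0.774), at 36.7 CPM in PM, 30.9 in LL and 21.3 in SS. ENSOARG00000004429 on chromosome 12 from 64355874 to 64377591 (r = 0.706) was at 135 CPM in PM, 117 in LL and 62.9 in SM. Both were thus clearly expressed in the muscles where XLOC_027233 was at 0, and the remaining 3 of the 5 nearest had r from 0.656 to 0.664.

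The loci next to the 3 on the chromosome were described as well. Below ENSOARG00000017789, the nearest tested loci were a pair with the same coordinates that ended 3566 bases away, with means of 2.30 to 3.88 CPM and 2.53 to 3.54 CPM in the 9 muscles (r = 0.024 and 0.238 over the 36 samples). Above it, 16765 bases away, an unannotated locus was also highest in LL, at 2.73 CPM, and lowest in SS, at 0.902 CPM (r = 0.505). An r above 0.5 with ENSOARG00000017789 was found for 461 of the 12460 other loci. Next to ENSOARG00000009826, an unannotated locus 2104 bases above its end had 2.26 CPM in LL and 0.324 CPM in SM, with an r of 0.060, and the locus 18882 bases below had an r of 0.116. The neighbours of XLOC_027233 lay 55923 bases below and 694218 bases above it, with means of 8.54 to 10.5 CPM and 3.79 to 5.07 CPM, and with r of -0.093 and -0.103. The 55923 bases between XLOC_027233 and the locus below it held no tested locus, and that locus was expressed in all 9 muscles.

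Slow fibre genes were compared with the 3 loci, as their summed level was highest in PM and SS. Of 10 genes listed, 8 were found (TNNT1, TNNC1 and TNNI1 of slow troponin, MYL3, MYOZ2, TPM3, the calcium pump ATP2A2 and the calcium-binding CASQ2). Their summed level was 1517 ± 241 CPM in PM, 1227 ± 275 in SS, 952 ± 168 in GB, 662 ± 129 in AD and 653 ± 198 in GM (mean ± SD, n = 4 each). It was 522 ± 217 in RF, 482 ± 184 in SM, 374 ± 164 in LL and 136 ± 34.4 CPM in ST. The order differed from that of each of the 3 loci.

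The animal-centred r with the slow fibre sum was -0.346 for ENSOARG00000017789, -0.451 for ENSOARG00000009826 and 0.250 for XLOC_027233 over 36 samples. Without SS the values were -0.145, -0.306 and 0.315 over 32 samples. PM, with the highest slow fibre sum, had 1.92-fold the level of ENSOARG00000009826 in SS (log2 difference 0.94, SE 0.21, 4 of 4 animals), and ST, with the lowest sum, was at a level near that of AD. PM and LL, where XLOC_027233 was above the floor, had the highest and the second lowest slow fibre sums.

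**Figure D4:**
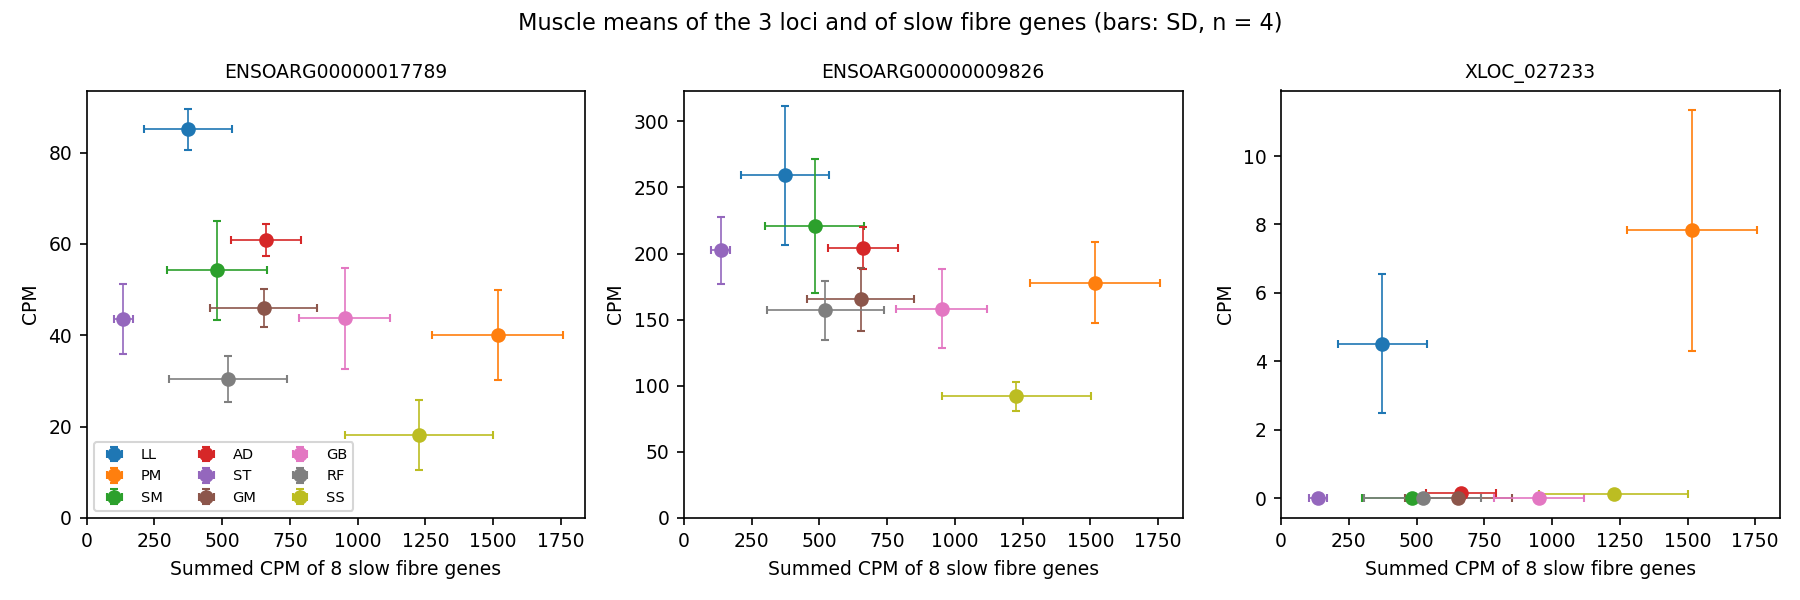
Mean CPM of each of the 3 loci (vertical axes) against the summed CPM of 8 slow fibre genes (horizontal axes) in 9 muscles, with bars for the SD of 4 animals. SS and PM have high slow fibre sums (1227 and 1517 CPM), and their values do not overlap for any of the 3 loci. LL and PM, which hold 278 of the 284 XLOC_027233 counts, lie far apart on the horizontal axis.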

How the data were processed

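RNA was measured by RNA-Seq in 36 samples, 9 muscles of each of 4 lambs. Per the submitters' processing notes, the authors used TopHat2 2.0.13, Cufflinks 2.2.1 and HTSeq with the Oar_v3.1 genome, and they deposited whole-number counts per assembled locus without normalization. The strand setting of the counting is not given in the sources used here, so reads of antisense partners cannot be told apart. Start coordinates in the files count from 0, and 1 was added. Of 31530 entries, 31136 distinct loci were used once each. Replicate libraries of a muscle always differed by more than sampling noise (chi-square per degree of freedom 5.12 to 34.7 over 54 pairs), so all were kept as replicates.

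Low counts were filtered by filterByExpr with muscle as the group, leaving 12461 loci, and TMM was used for normalization. All 36 samples entered 1 model of muscle plus animal in R 4.3.3 with edgeR 4.0.16 (limma 3.58.1), and tested with the quasi-likelihood test and Benjamini-Hochberg adjustment. DESeq2 1.42.0 served as an alternative. Calls needed an FDR of at most 0.01 and, in pairs, an absolute log2FC above 1. Log2 CPM used a prior count of 2, which compresses differences of loci with few counts, and SEs are those of 4 within-animal differences. The procedure was tested on simulated data. Changes were placed only in loci with a higher mean level than XLOC_027233, so that test does not cover a locus with so few counts. The samples are paired by the animal number in the labels, and the study's model also adjusts for animal. Deviations from the muscle means correlated at 0.236 over 144 pairs of samples of the same animal, against -0.0777 between animals.

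The loci and lists were chosen with earlier results of these data known. Besides the 3 loci, the rule names the 5 tested loci most similar to each, those that overlap it and its nearest tested neighbours. Of these, only some are named, an order set after their values were seen. The files hold no gene symbols. SMYD2, CHI3L1 and 8 of 10 slow fibre genes were found by coordinates printed in the study. Markers of other cell types, the fast fibre list and gene families could not be looked up, so the labelled tissue was checked only against slow fibre genes. No sequence was used.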

Additional observations from a re-analysis of the deposited data

Results flagged for a closer look

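In 22 groups of 4 animals, the highest or lowest sample was compared with the others by Dixon's ratio, the gap to the nearest sample over the range and with its 95% critical value. Chance marks about 1 in 20 such groups. ENSOARG00000017789 in AD stood at 55.5 CPM in animal 4, below the other 3 animals at 62.0 to 62.8 CPM (ratio 0.890). XLOC_027233 stood at 7.55 CPM in LL of animal 3, above the other animals at 3.19 to 3.77 CPM (ratio 0.867). In PM of the same animal it stood at 13.1 CPM, above the others at 5.60 to 6.74 CPM (ratio 0.847). Both XLOC_027233 values thus come from 1 animal, with 44 and 63 counts. In its other 7 muscles, animal 3 had at most 1 count.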

How the results depend on the processing

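The joint test of the 6 muscles called 423 loci, against 838 with the likelihood ratio test, 1210 without the filter and 189 to 262 with 1 animal left out. The FDR of ENSOARG00000017789 in it was 0.00833 with the likelihood ratio test, 0.00839 with DESeq2 and 0.000896 without the filter, and 0.0195 to 0.207 with 1 animal left out, the highest without animal 2. The animal test called 2122 loci, 1111 with at least 10 counts in every sample and 1157 to 1705 with 1 animal left out. The FDR of XLOC_027233 in it was 4.2e-06 with the likelihood ratio test, and 0.0408 to 0.994 with 1 animal left out, the highest without animal 3. Calls summed over the 15 pairs were 1032, against 1643 with the likelihood ratio test, 2997 without the filter, 462 with at least 10 counts and 531 to 707 with 1 animal left out. ENSOARG00000017789 was called in 1 pair, RF and AD, with DESeq2 (FDR = 0.0012), with library sizes without the 4 most counted loci (FDR = 0.01) and in the fit to 24 samples (FDR = 0.0042), and in 0 to 1 with 1 animal left out (1 without animal 1, FDR = 0.0044). The cause of these shifts was not tested.

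Without the replicate block, that is without animal in the model, the joint test called 136 loci and the pairs 413, the joint FDR was 0.0824 for ENSOARG00000017789, 0.495 for ENSOARG00000009826 and 2.97e-08 for XLOC_027233, and no call of the 3 loci changed. XLOC_027233 kept its 5 pairs with each animal left out. It could not be given with at least 10 counts in every sample, and DESeq2 gave an adjusted p for 2 of its 5 pairs with PM, both called. Of the 5 most similar loci, Spearman correlation shared 3 for ENSOARG00000017789 and 2 for XLOC_027233. Depth limits XLOC_027233, for which 0 counts over the 4 samples of a muscle allow up to 0.114 to 0.158 CPM by counting error.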
